A study of Moesziomyces aphidis with 9 samples.

Results

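In Moesziomyces aphidis, a yeast-like smut fungus also known as Pseudozyma aphidis, 61 genes lay in 18 runs of at least 3 neighbouring genes that were all lower when soybean oil was added to a glucose medium. They were picked from 6952 genes by their RPKM values, which are reads scaled by gene length and by the total of the library, in 3 glucose and 3 soybean oil libraries. A gene was kept if its mean over the 6 libraries was at least 1 RPKM, if the log2 ratio of the medium means, oil to glucose with 1 RPKM added to each, was at most -1, and if its highest oil value lay below its lowest glucose value. Of the 6486 genes that passed the minimum mean, here called the tested genes, 789 were kept, a share of 12.2%. Of these, 61 stood in runs of 3 or more consecutive identifier numbers in which every gene was kept, and 728 did not. The same 6 libraries chose the members, so their lower values with oil are a description and carry no test.

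Strain DSM70725 was grown at 30 °C for 114 h in yeast extract medium with 40 g/l glucose. These cultures are labelled not induced, and their cells blastospores, which are single budding cells. The other cultures held the same glucose and a further 70 g/l soybean oil, and are labelled soybean oil induced, with filaments. Medium and cell form therefore changed together and cannot be told apart, and in bulk RNA fewer expressing cells and less RNA per cell cannot be told apart either. The 6 libraries were read as unstranded 50 bp single reads. A stranded library of replicate 1 for each medium and a paired-end library with 95 bp reads of soybean oil replicate 2 were not used to choose the members.

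Soybean oil is a source of fatty acids, and smut fungi fed with oils make mannosylerythritol lipids, secreted glycolipids with surfactant activity. Fungi often keep genes of a joint task side by side, such as those for a secondary metabolite or for the uptake and breakdown of a nutrient, and smut fungi also keep clusters of genes for secreted proteins. The deposited identifiers are bare numbers with no names or products beside them, so no function is given for any member. Consecutive numbers stand for neighbours on a chromosome, since no map position of a gene was used here.

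Library totals worked out from the RPKM values ran from 8108888 to 11100455 reads in the 6 libraries. Glucose replicate 3 was lower than the other glucose libraries at the median gene. Over all 6486 genes its median log2 ratio to the mean of replicates 1 and 2 was -0.17, with a 5th percentile of -0.84 and a 95th percentile of 0.51. Factors that scale libraries by the median ratio of their genes were 1.06, 1.05 and 0.957 for glucose replicates 1, 2 and 3. Values of replicate 3 given here were not rescaled, so a shift of the whole library is part of them. The paired-end library was also set beside the 50 bp libraries. Its log2(RPKM + 1) values correlated across genes, which are not independent replicates, at r = 0.886 with the 50 bp library of the same replicate. The values were 0.854 and 0.872 with soybean oil replicates 1 and 3, and 0.815 to 0.830 with the glucose libraries. By rank it correlated at 0.836 both with glucose replicate 1 and with soybean oil replicate 1.

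Of the 18 runs, 13 held 3 genes, 3 held 4 and 2 held 5. One run carried numbers above 10000, a separate series of identifiers, and 17 lay below. The log2 ratios of the members ranged from -7.83 to -1.0035 with a median of -1.85, against -1.43 for the 728 kept genes outside runs and -0.07 for all 6486 genes. At least 4-fold lower means (log2 ratio of at most -2) were found in 23 of the 61 members, and at least 16-fold lower means in 7. Of the 728 kept genes outside runs 182 and 26 were that much lower, and of all 6486 tested genes 205 and 33. Mean levels on glucose spanned 2.98 to 6988 RPKM. They lay under 10 RPKM in 14 members, between 10 and 100 in 33, between 100 and 1000 in 9 and above 1000 in 5. With oil the means ran from 0.0264 to 1639.5 RPKM, and 14 members had less than 1 RPKM. So did 71 of the 728 kept genes outside runs and 107 of all 6486 tested genes.

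Of all reads that lay in genes, the members took 4.02% ± 0.776 in the glucose libraries and 0.716% ± 0.179 in the oil libraries (SD, n = 3 libraries each). In glucose replicate 3 the share was 3.13%, against 4.49% and 4.45% in replicates 1 and 2. Most of these reads came from few genes: the 5 members above 1000 RPKM on glucose held 85.5% to 88.7% of the members' reads in the glucose libraries and 76.9% to 88.5% in the oil libraries. Without PaG_00893, the most abundant member, the glucose share was 2.72% ± 0.198 (SD, n = 3).

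**Figure D1:**
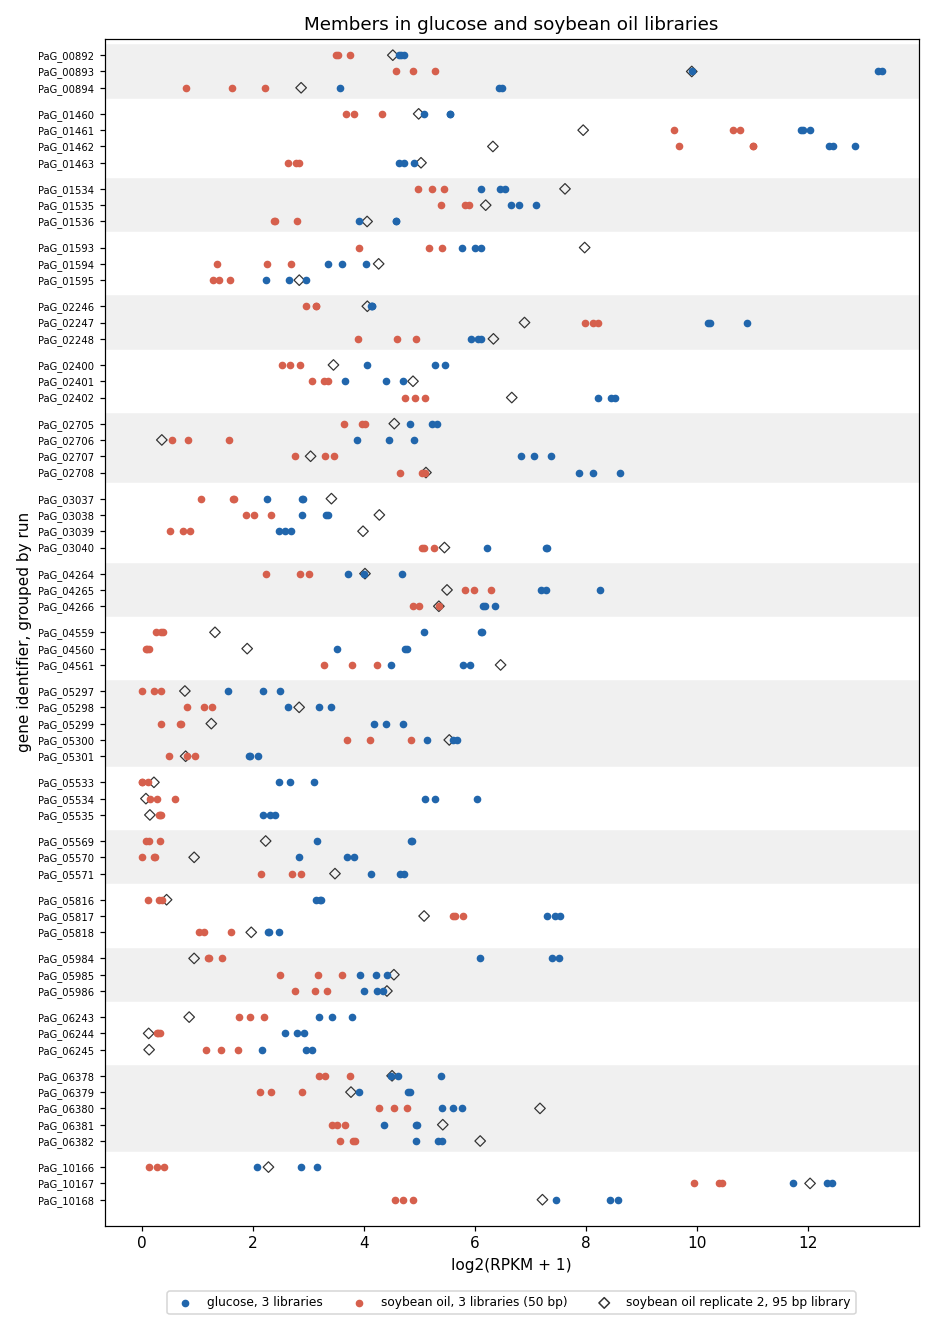
Level of each of the 61 members on the log2(RPKM + 1) scale, grouped by run, with 1 point per library for glucose (blue), soybean oil (red) and the paired-end soybean oil library (open diamonds). By the choice of members the blue and red points of a gene do not overlap. The diamonds lie among or beyond the blue points in 23 members.

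The run from PaG_00892 to PaG_00894 held the most abundant glucose transcript of the whole data set. PaG_00893 stood at 10223, 9782 and 958 RPKM in glucose replicates 1, 2 and 3 and at 23.0, 37.8 and 28.6 RPKM in soybean oil replicates 1, 2 and 3. Its glucose mean of 6988 ± 5226 RPKM (SD, n = 3) ranked 1 among all genes, its oil mean of 29.8 ± 7.48 ranked 3430, and the log2 ratio was -7.83. When replicate 2 with oil was represented by its paired-end library, the log2 ratio was -4.37. PaG_00894 had 85.3, 89.1 and 10.8 RPKM on glucose and 0.744, 3.64 and 2.08 RPKM with oil. Both genes were thus much lower in glucose replicate 3 than in replicates 1 and 2, though still above every 50 bp oil library. In the paired-end oil library PaG_00893 had 957 RPKM, next to 958 in glucose replicate 3. PaG_00892 was nearly even, with 25.5, 24.5 and 23.8 RPKM on glucose and 10.3, 12.4 and 10.6 with oil. The log2 ratios of this run spanned 6.75, the widest span of the 18 runs.

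Another pair of abundant neighbours formed the core of the run from PaG_01460 to PaG_01463. PaG_01462 had 5302, 5616 and 7311 RPKM on glucose and 2052, 820.4 and 2046 RPKM with oil, a log2 ratio of -1.89 between means of 6076 ± 1081 and 1639.5 ± 709 RPKM (SD, n = 3). Its neighbour PaG_01461 had 3859, 3758 and 4176 RPKM on glucose and 1597, 769 and 1742 with oil. Soybean oil replicate 2 was the lowest library for both. The outer genes of the run were expressed at far lower levels but had similar ratios: PaG_01463, with the lowest log2 ratio of the run at -2.01, had 23.9, 28.9 and 25.4 RPKM on glucose and 5.19, 6.11 and 5.89 with oil, and PaG_01460 had a log2 ratio of -1.44. Across the run the ratios spanned 0.57 on the log2 scale, and glucose means differed 233-fold. With the paired-end library for replicate 2 with oil, the log2 ratios from PaG_01460 to PaG_01463 were -0.95, -1.72, -2.12 and -0.83.

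The run from PaG_10166 to PaG_10168 had the widest range of levels, with glucose means that differed 809-fold. PaG_10167, at its centre, had 5545, 5182 and 3401 RPKM on glucose and 990.1, 1346 and 1397 with oil. It remained at a mean of 1245 ± 222 RPKM with oil (SD, n = 3), a log2 ratio of -1.92, which was -1.10 with the paired-end library for replicate 2. PaG_10168 had 379.8, 343 and 176 RPKM on glucose and 25.2, 28.5 and 22.6 with oil, a log2 ratio of -3.51. The weakest gene of the run, PaG_10166, went from a mean of 5.82 to 0.213 RPKM, at a log2 ratio of -2.49. All 3 genes had their lowest glucose value in replicate 3.

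In the run from PaG_02246 to PaG_02248 the central gene was again by far the most abundant. PaG_02247 had 1166, 1199 and 1918 RPKM on glucose and 253, 297 and 277 RPKM with oil, a log2 ratio of -2.37. Here glucose replicate 3 was the highest library. PaG_02246 showed little spread, with 16.7 ± 0.191 RPKM on glucose and 7.46 ± 0.619 with oil (SD, n = 3), and PaG_02248 had a log2 ratio of -1.49. In 8 of the 18 runs the member with the lowest log2 ratio was also the one with the highest glucose mean. The added 1 RPKM limits how low the ratio of a weak gene can be, so nothing is read from this count.

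From PaG_05533 to PaG_05535 every mean was under 1 RPKM with oil, the only run of which this held. PaG_05534 had 38.0, 33.3 and 64.7 RPKM on glucose and 0.116, 0.214 and 0.512 RPKM with oil, which rested on 2, 4 and 7 reads, and its log2 ratio was -5.18. PaG_05533 had 5.86 ± 1.58 RPKM on glucose (SD, n = 3). With oil it had 0 reads in replicates 1 and 3 and 1 read in replicate 2. A count of 0 allows up to 3 reads, or 0.259 RPKM in replicate 1 and 0.326 in replicate 3, for counting error only. In all, 8 runs held at least 1 member with a mean under 1 RPKM with oil.

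A pair of neighbours in the run from PaG_04559 to PaG_04561 also had few reads with oil. PaG_04559 had 68.4, 69.3 and 32.8 RPKM on glucose and 0.303, 0.278 and 0.191 with oil, a log2 ratio of -5.52. PaG_04560 had a log2 ratio of -4.35, and 1, 2 and 1 reads in the oil libraries. The third gene, PaG_04561, kept a mean of 13.1 ± 4.53 RPKM with oil (SD, n = 3). Along the run the log2 ratios were -5.52, -4.35 and -1.70. The means of PaG_04559 and PaG_04560 were 56.8 and 20.9 RPKM on glucose and 0.257 and 0.0761 RPKM with oil. These oil means lay below the added 1 RPKM, so the difference between the 2 ratios depends on it. One identifier further down, PaG_04558 was below 1 RPKM on average, and PaG_04557 beyond it was kept by the rule with a log2 ratio of -5.73.

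In the run from PaG_05569 to PaG_05571 the log2 ratios were -4.30, -3.35 and -1.92. The oil means of PaG_05569 and PaG_05570 also lay below the added 1 RPKM, so their ratios depend on it too. PaG_05569 had 27.9, 28.3 and 7.90 RPKM on glucose and 0.0926, 0.255 and 0.0582 with oil. PaG_05570 had 1, 1 and 0 reads with oil, and PaG_05571 kept 5.10 ± 1.49 RPKM (SD, n = 3). In the run from PaG_05984 to PaG_05986 the first gene alone was strongly lower. PaG_05984 had 181, 166 and 67.2 RPKM on glucose and 1.31, 1.30 and 1.71 with oil, a log2 ratio of -5.83, while its neighbours had -1.05 and -1.11.

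The run from PaG_02705 to PaG_02708 had 3 genes with log2 ratios of -3.29 or lower. PaG_02707 had 133, 165 and 112 RPKM on glucose and 5.81, 8.89 and 10.1 with oil, a log2 ratio of -3.90. PaG_02708, the most abundant of the run, had 233, 278 and 392 RPKM on glucose and 24.3, 31.9 and 33.4 with oil, a log2 ratio of -3.29. PaG_02706 had a log2 ratio of -3.41 and PaG_02705, at the edge, one of -1.26. Further genes kept by the rule lay close by on both sides: PaG_02702 and PaG_02703 had log2 ratios of -2.59 and -1.72, and PaG_02710 and PaG_02711 had -2.10 and -2.83. The genes between were PaG_02704, whose mean was 0.0483 RPKM, and PaG_02709, with a log2 ratio of -0.50. This wider stretch was picked out after its values were seen.

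Both runs of 5 consisted of genes at low to moderate levels. In the run from PaG_05297 to PaG_05301 the central gene had the lowest ratio: PaG_05299 had 20.1, 17.2 and 25.2 RPKM on glucose and 0.278, 0.637 and 0.611 with oil, a log2 ratio of -3.85. PaG_05300 was the most abundant, with 48.0, 50.1 and 34.4 RPKM on glucose and 11.9, 27.9 and 16.2 with oil, and its log2 ratio was -1.20. PaG_05298 had 8.14, 9.60 and 5.26 RPKM on glucose and 0.760, 1.40 and 1.18 with oil. The first and last genes were weak on either medium. PaG_05297 had 3.53, 4.62 and 1.95 RPKM on glucose and 0.167, 0 and 0.279 with oil, where the 0 allows up to 0.153 RPKM. PaG_05301 had 2.89, 3.25 and 2.80 RPKM on glucose and 0.413, 0.759 and 0.952 with oil. The oil values of PaG_05297, PaG_05299 and PaG_05301 rested on 0 to 12 reads per library.

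The other run of 5, from PaG_06378 to PaG_06382, was more even, with log2 ratios from -2.09 to -1.05 and glucose means within a factor of 2.08. PaG_06379 had the lowest ratio, with 27.0, 27.5 and 14.1 RPKM on glucose and 4.01, 6.38 and 3.36 with oil. PaG_06380 had 53.2, 47.8 and 41.5 RPKM on glucose and 18.4, 26.6 and 22.4 with oil. Its log2 ratio of -1.05 was among the members' closest to the limit of the rule. PaG_06381 had 29.7, 30.1 and 19.6 RPKM on glucose and 9.80, 11.7 and 10.5 with oil, and PaG_06382 had 41.6, 39.5 and 29.6 on glucose and 10.9, 13.4 and 13.0 with oil. These genes had their lowest glucose value in replicate 3. PaG_06378 had its highest there, with 21.5, 23.7 and 40.8 RPKM on glucose against 8.19, 12.5 and 8.81 with oil.

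A further group of runs held 1 gene of more than 100 RPKM on glucose beside weaker ones. PaG_02402 had 366, 348 and 295 RPKM on glucose and 25.8, 33.3 and 29.5 with oil, a log2 ratio of -3.46. Its neighbours PaG_02400 and PaG_02401 had -2.37 and -1.08. PaG_04265 had 144, 155 and 305 RPKM on glucose and 62.0, 77.4 and 55.7 with oil, and the run from PaG_04264 to PaG_04266 had the narrowest span of log2 ratios, 0.48. In the run from PaG_05816 to PaG_05818, PaG_05817 was the abundant gene, with 157, 173 and 183 RPKM on glucose and 47.8, 54.2 and 49.0 with oil. The lowest ratio of that run was -2.93 in PaG_05816, which had 8.34, 8.31 and 7.82 RPKM on glucose and 0.284, 0.0870 and 0.238 with oil.

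PaG_03040 had 157, 155 and 73.6 RPKM on glucose and 32.0, 37.2 and 33.1 with oil, and closed a run whose other members, PaG_03037 to PaG_03039, had glucose means under 10 RPKM. In the run from PaG_01534 to PaG_01536 the most abundant gene, PaG_01535, had 110.5, 99.7 and 136 RPKM on glucose and 55.4, 58.4 and 41.2 with oil. PaG_01536 had the lowest ratio there, with 23.1, 22.9 and 14.0 RPKM on glucose and 4.29, 5.92 and 4.25 with oil. Over the 61 members the lowest glucose value exceeded the highest oil value by a median of 2.37-fold, and by 1.20-fold in the member with the narrowest gap. The remaining 2 runs held no gene above 100 RPKM. PaG_06244, in the run from PaG_06243 to PaG_06245, had 6.62, 5.97 and 5.03 RPKM on glucose and 0.206, 0.227 and 0.259 with oil. PaG_01594, in the run from PaG_01593 to PaG_01595, had 15.4, 11.3 and 9.28 on glucose and 1.57, 5.43 and 3.79 with oil.

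The members closest to the limit of the rule were PaG_01593 and PaG_06380, with log2 ratios of -1.0035 and -1.05. PaG_01593 had 68.2, 62.9 and 53.5 RPKM on glucose and 14.1, 41.5 and 35.0 with oil. Just outside lay PaG_02202 and PaG_06499, with log2 ratios of -0.98 and -0.96, each of which would have completed a further run. PaG_02202 had 43.5, 29.0 and 43.3 RPKM on glucose and 17.4, 20.7 and 19.3 with oil. PaG_06499 had 16.1, 14.0 and 8.68 RPKM on glucose and 6.17, 6.97 and 5.24 with oil. In all, 175 genes that were tested and not kept would each, alone, have completed a run away from the 18. Of these, 172 missed the limit on the ratio and 3 had overlapping groups.

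Each run has 2 flanking identifiers, 36 in all, of which 21 were expressed at a mean of at least 1 RPKM. Their log2 ratios ranged from -0.79 to 2.48 with a median of 0.16, and 14 of the 21 were higher with oil, where 46.1% of all tested genes were. These ratios come from the libraries of the rule, and a flank at -1 or lower without overlap would itself have been a member, so they do not show how sharply the runs end. In the stranded pair, which the rule did not use, the count turned over: 7 of the 21 flanks were higher with oil and 14 lower, where 69.5% of all genes were lower. The median stranded log2 ratio of the flanks was -0.19, against -0.35 for all genes. At most -1 was reached there by 2 flanks, PaG_04263 at -1.48 and PaG_05815 at -1.58, where 20.7% of all genes reached it. Of the other flanks, 8 had a mean under 1 RPKM and 7 numbers were not analysed here. At a distance of 2 identifiers, 31 of 36 positions held a tested gene, and 8 of these were kept by the rule, against 12.2% of all tested genes. This difference was not tested. The 8 were PaG_02244, PaG_02703, PaG_02710, PaG_03035, PaG_04557, PaG_05567, PaG_10164 and PaG_10170.

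Beside the longer runs, PaG_06377 and PaG_06383 on both sides of the even run of 5 had log2 ratios of 0.18 and 0.44. Above the other run of 5, PaG_05302 had 0.31, and below it PaG_05296 had a mean of 0.0295 RPKM. PaG_03041 had a log2 ratio of 0.14 above the run that ends with PaG_03040. The number below that run was not analysed here, and PaG_03035 beyond it was kept by the rule with a log2 ratio of -2.28. PaG_01464 followed the run of the abundant pair with a log2 ratio of -1.11, but its mean of 0.828 RPKM was below the limit, and the number before that run was not analysed here.

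**Figure D2:**
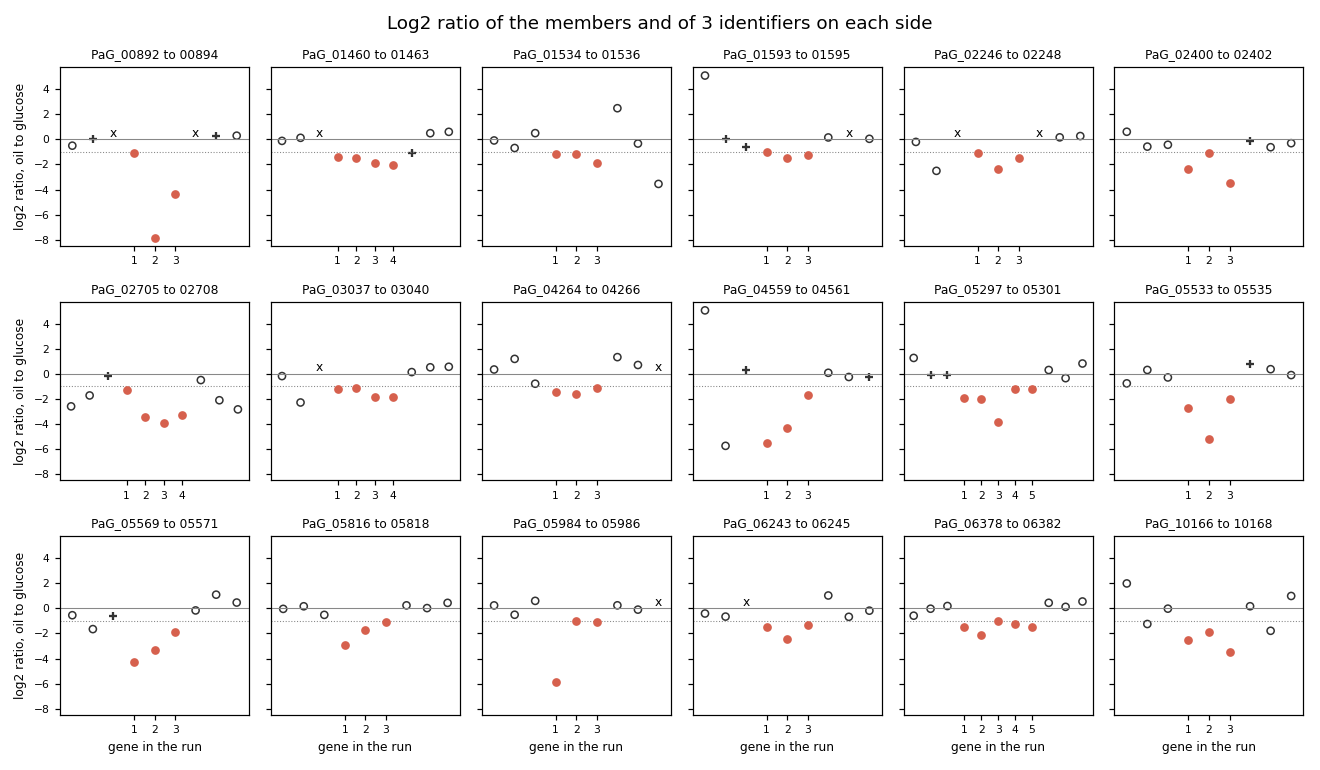
Log2 ratio of the means with soybean oil and on glucose, with 1 RPKM added, for the members of each of the 18 runs (red) and for 3 identifiers on each side (open circles; plus signs mark genes with a mean under 1 RPKM and crosses numbers not analysed here). The dotted line marks the limit of -1. Tested neighbours next to a run lie between -0.79 and 2.48, and the wider stretch around PaG_02705 to PaG_02708 shows further low genes.

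Ratios varied within runs as well as between them. The span of log2 ratios within a run had a median of 1.72, exceeded 2 in 8 runs and stayed under 1 in 5. The medians of the runs lay between -4.35 and -1.11. The lowest ratio stood at an end of the run in 9 runs and inside in the other 9. Most runs had more end than inside positions, so nothing is read from this split. At least 1 member was 4-fold lower or more in 14 runs, and in no run were all. Levels differed within runs too. The highest glucose mean of a run exceeded the lowest by a median of 12.95-fold, with a range of 1.75-fold to 809-fold. It did so by more than 10-fold in 12 runs. The rule held the ratios at -1 or lower and set no such limit on glucose levels, so these spreads are not compared. Gene length, which the rule did not use, had a median of 1687 bp in the members and 1702 bp in all tested genes (quartiles 1074 and 2120, against 1070 and 2608).

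The stranded libraries gave values from another preparation that the rule did not use, with 1 library per medium and hence no test. They carry the number of replicate 1, whose 50 bp libraries helped to choose the members, so they cannot be taken as independent cultures. The stranded log2 ratio, also with 1 RPKM added to each value, was at most -1 in 57 of the 61 members, where 20.7% of 6484 genes reached this limit and 650 of the 728 kept genes outside runs (89.3%) did. All 61 members had a lower value with oil, as did 721 of the 728 kept genes outside runs and 69.5% of the 6484 genes. The median log2 ratio of the members was -2.21, against -1.75 for the kept genes outside runs and -0.35 for all genes. In 15 of the 18 runs every member reached -1.

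The 4 members short of the limit in the stranded pair were PaG_01534 at -0.96, PaG_01535 at -0.40, PaG_03037 at -0.61 and PaG_05301 at -0.99. The abundant genes were lower with oil here too: PaG_00893 stood at 11405 RPKM on glucose and 27.7 with oil, a log2 ratio of -8.63. PaG_01462 stood at 5658 and 2552 RPKM, a log2 ratio of -1.15, and PaG_10167 at 3205 and 538, a log2 ratio of -2.57. PaG_02247 had a far lower level than in the 50 bp libraries, at 196 and 47.5 RPKM, yet a similar log2 ratio of -2.02. With oil PaG_04560, PaG_05297 and PaG_05570 were listed at 1 in the deposited stranded values, the lowest value listed there, which is 0 once the added 1 is subtracted.

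**Figure D3:**
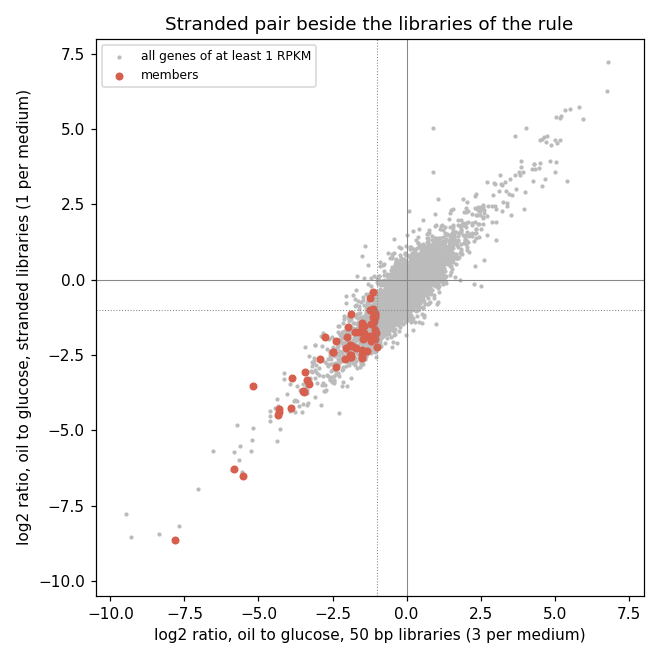
Log2 ratio of soybean oil to glucose in the stranded pair (1 library per medium) against that in the 50 bp libraries (3 per medium), for all genes of at least 1 RPKM (grey) and the 61 members (red). The dotted lines mark -1. All members lie below 0 on the vertical axis, 57 of them at or below -1.

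The paired-end library of soybean oil replicate 2 showed many members at higher levels than the 50 bp oil libraries. It lay above all 3 of these in 46 of the 61 members, where it did so in 62.3% of all tested genes and in 84.6% of the kept genes outside runs. Since the 50 bp library of the same replicate helped to choose the members for low values, the excess over all genes is not independent of the choice. The median log2 ratio of the paired-end to the 50 bp library was 0.85 in the members, 1.07 in the kept genes outside runs and 0.28 in all genes. It was at least 2-fold higher in 27 members (44.3%), against 15.7% of all genes, and at least 2-fold lower in 5, against 4.41%.

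In 23 members the paired-end value reached or passed the lowest glucose value, and in 15 it passed the highest. These were 37.7% and 24.6% of the members, against 49.2% and 26.8% of the kept genes outside runs and 75.3% and 56.8% of all tested genes. PaG_00893 had 957 RPKM there, next to 37.8 in the 50 bp library of the same replicate and 958 in glucose replicate 3. PaG_01593 had 251 and PaG_06380 had 143 RPKM, above all glucose libraries, and PaG_10167 had 4192 RPKM, within their range. Others were lower than in any 50 bp oil library: PaG_01462 had 79.2 and PaG_01461 had 246 RPKM, and all 3 genes from PaG_06243 to PaG_06245 lay below 1 RPKM. When the paired-end library stood in for the 50 bp library of that replicate, the rule gave 13 members in 4 runs. These were the runs from PaG_02705 to PaG_02708, PaG_05533 to PaG_05535, PaG_05569 to PaG_05571 and PaG_06243 to PaG_06245, each whole.

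Glucose replicate 3 was lower than both other glucose libraries in 45 of the 61 members (73.8%), where 60.6% of all tested genes and 70.3% of the kept genes outside runs were. It was higher than both in 14 members, against 28.5% of all genes. The median log2 ratio to the mean of replicates 1 and 2 was -0.42 in the members, -0.35 in the kept genes outside runs and -0.17 in all genes. It was at least 2-fold lower in 10 members (16.4%) and at least 2-fold higher in 1 (1.64%). Of the kept genes outside runs 7.14% and 0.824% were, and of all tested genes 2.64% and 0.524%.

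In 8 runs every member was lower in replicate 3 than in both others, in none was every member higher, and in 9 runs members of both kinds stood side by side. These 8 were among the 13 runs of 3, and of all 4927 windows of 3 consecutive tested identifiers 25.6% were lower throughout. The glucose libraries helped to choose the members, so nothing is read from this difference. From PaG_04559 to PaG_04561 the log2 ratios of replicate 3 to the mean of the others were -1.05, -1.23 and -1.36, and from PaG_10166 to PaG_10168 they were -0.95, -0.66 and -1.04. In the run from PaG_00892 to PaG_00894 they were -0.07, -3.38 and -2.90. The highest value of a member was 1.02 in PaG_04265, whose neighbours PaG_04264 and PaG_04266 had 0.81 and -0.14. Without glucose replicate 3 all 61 members were still kept, and the rule gave 93 members in 28 runs.

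**Figure D4:**
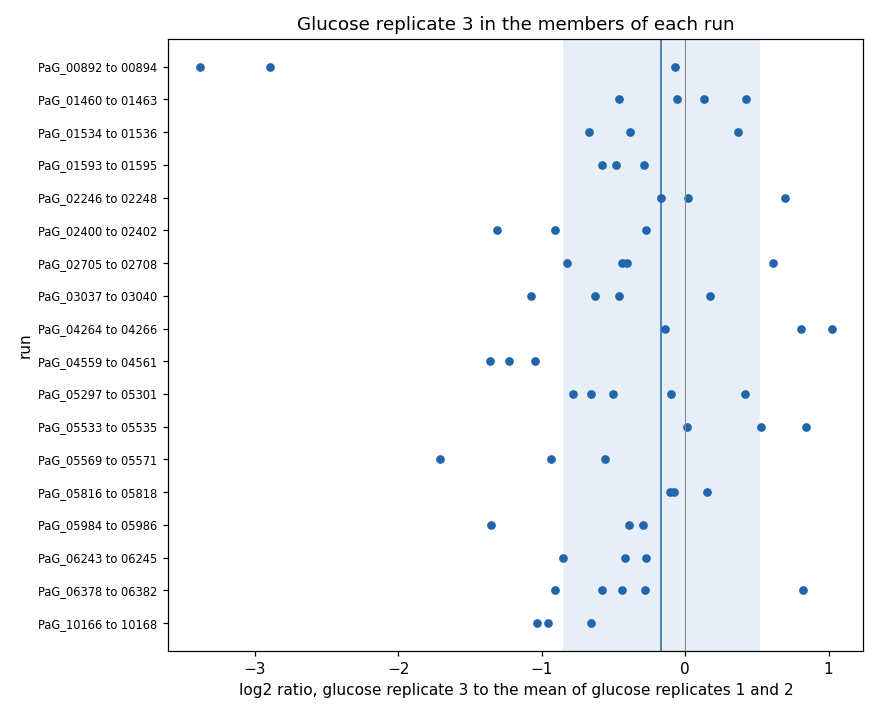
Log2 ratio of glucose replicate 3 to the mean of glucose replicates 1 and 2, with 1 RPKM added, for each member (points) by run. The band spans the 5th to the 95th percentile of all tested genes (-0.84 to 0.51) and the blue line marks their median (-0.17). PaG_00893 and PaG_00894 lie farthest to the left, at -3.38 and -2.90.

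Of the 18 runs, 12 stayed whole with each of the 6 libraries left out in turn. Without soybean oil replicate 1, 12 runs were whole and the rule gave 42 members in 13 runs. Without soybean oil replicate 2 all 18 were whole and the rule gave 95 members in 29 runs. Leaving out a library, here or for glucose replicate 3 above, can only loosen the demand that the groups do not overlap. Only the limits on the ratio and the mean could then drop a member, so these counts are no full test of stability.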

How the data were processed

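Total RNA from 9 libraries was sequenced on a HiSeq2000, per the labels' protocols, and reads were aligned with TopHat 1.4.1, per the submitters' processing notes. The authors deposited RPKM values per gene. How reads were counted, on which annotation and on which genome build, is not stated by the labels or the files. In the 7 libraries other than the stranded pair, the deposited RPKM values were ratios of whole numbers, from which library totals, gene lengths and reads were worked out (tolerance 1e-06 read) for 6899 genes; the other 53 were at 0 in all 7. The deposited stranded values have none under 1. The 155 genes listed at 1 on glucose had a median of 0 RPKM in the 50 bp glucose libraries, so 1 was taken to have been added and was subtracted.

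Values were computed with Python 3.11.15, numpy 2.4.6 and pandas 2.3.3 and checked on simulated data. The rule, members and product lists were chosen with earlier results of these data known. The lists could not be applied, since identifiers carry no products. Genes given by library were those of runs of 5, the lowest ratio of each other run, the most abundant gene of at least 100 RPKM on glucose, and those nearest the limit. Others were added after their values were seen: PaG_00892, PaG_00894, PaG_01461, PaG_03035, PaG_04557, and the neighbours of PaG_02705 to PaG_02708. PaG_04560, PaG_05533 and PaG_05570, also outside this choice, were given by their reads with oil. The SD measures the spread between samples, which the labels do not say came from separate cultures. The 11 junction lists were not used, as positions are not tied to identifiers.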

Additional observations from a re-analysis of the deposited data

How the results depend on the processing

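The number of members depended on the settings. With 61 members in 18 runs among 789 kept genes as the base, a pseudocount of 5 RPKM gave 26 members, 8 runs and 486 kept genes. A log2 limit of -1.5 gave 21, 7 and 359, and the paired-end library in place of soybean oil replicate 2 gave 13, 4 and 358. A minimum mean of 10 RPKM gave 34 members in 10 runs and quantile normalization 33 in 10. Leaving out each library in turn gave 42 to 95 members, 13 to 29 runs and 721 to 899 kept genes. A pseudocount of 0.1 RPKM, no minimum, median-ratio scaling and allowing overlap gave 53 to 81 members. The median log2 ratio of the members, -1.85, was -1.24 with a pseudocount of 5 RPKM, -1.56 after quantile normalization, -1.49 with the paired-end library and -1.84 to -1.74 with a library left out. The median of the run medians, -1.73, was -1.80 to -1.67 with a library left out. Taken within same-numbered libraries as a replicate block, the median of the members was -1.81. Deviations of same-numbered libraries from the mean of their medium correlated at -0.19, 0.23 and 0.05, and those of unlike-numbered libraries at -0.25 to 0.21. With 3 libraries per medium these values cannot settle whether the numbers pair the samples. In the stranded pair the median of -2.21 was -1.79 with a further 1 RPKM added, -2.56 with a pseudocount of 0.1 and -1.46 with 5. The paired-end to 50 bp median of 0.85 was 1.21 and 0.61 with these pseudocounts, which were chosen after seeing the data. Without PaG_00893 the members took 2.72% of the glucose reads instead of 4.02%. With the paired-end library, the log2 ratio turned positive in PaG_01534 (0.0887), PaG_01593 (0.69), PaG_03039 (0.0750) and PaG_06380 (0.36), and no other alternative turned a member's sign. The cause of these changes was not tested. Runs by gene order in a reference table were not run, as no such table was used here. Oil values under 1 RPKM rest on few reads: 11 members had fewer than 10 reads in every oil library.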
